A study of Mus musculus with 24 samples.

Results

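The genes described here are 10 members of the machinery that drives a T cell through the G1 phase of the cell cycle. They are the D-type cyclins Ccnd1, Ccnd2 and Ccnd3, the E-type cyclins Ccne1 and Ccne2, the cyclin-dependent kinases Cdk4 and Cdk6, and the CDK inhibitors Cdkn1a (p21), Cdkn1b (p27) and Cdkn2c (p18). Their rows were found by gene symbol, through the Ensembl identifier of each row, and make up 10 of the 54446 genes in the table of read counts. The list was drawn up with earlier results of these data known. Poly(A) RNA was sequenced from CD4+ T cells of the spleen of WT mice (mice 1, 3 and 4) and of Aim2-/- mice (mice 1, 2 and 4), which lack the cytosolic DNA sensor AIM2, all on the C57BL6 background. Cells of each mouse were harvested unstimulated (0 h) and after 3, 6 and 24 h with antibodies against CD3 and CD28 in RP10 medium, so that each of the 8 groups holds 3 libraries and each mouse gives 1 library at every time. The questions are how these genes respond to stimulation over time and whether the response differs between the genotypes. The unstimulated cells are the control samples of the labels, which give no age for the mice and do not say whether WT and Aim2-/- mice were littermates. The strand setting of the counting is not given in the sources used here, and 7 of the 10 genes share bases with a gene of the opposite strand (Ccnd1, Ccnd2, Ccnd3, Ccne2, Cdk4, Cdk6 and Cdkn1a), so reads of such a partner may be among their counts.

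In a resting T cell the kinases CDK4 and CDK6 lack their D-type cyclin partners, and CDK inhibitors hold back the complexes that do form. Mitogenic signals from the T cell receptor and CD28 raise D-type cyclins, whose kinases start to phosphorylate the retinoblastoma protein. E2F factors are then released and induce E-type cyclins, which activate CDK2 and commit the cell to S phase. p27 and p21 bind cyclin and kinase together, p27 being the main brake of resting lymphocytes and p21 a target of p53, whereas p18 binds CDK4 and CDK6 directly.

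Library totals ran from 19715161 to 21627018 counts, so that the floor of detection used here, 3 counts in a library, lay near 0.129 to 0.155 CPM, the count of a gene scaled by library size (TMM). The 6 CD4+ T cell markers summed to between 2498 and 3909 CPM in all libraries. Markers of myeloid, B, erythroid, and basophil and mast cells tended to higher sums in the Aim2-/- libraries. At each time the library of mouse Aim2-/- 1 had the highest of each of these 4 sums. The 7 myeloid genes summed to 9.20 to 51.6 CPM in WT and 22.2 to 349 CPM in Aim2-/- libraries, the 6 B cell genes to 4.00 to 12.7 and 5.64 to 46.4 CPM, the 6 erythroid genes to 7.52 to 71.8 and 12.8 to 498 CPM, and the 4 basophil and mast cell genes to 6.01 to 14.4 and 41.3 to 164 CPM. The genotypes were closer in the 2 CD8 T cell genes, at 7.74 to 12.2 CPM in WT and 8.08 to 15.6 CPM in Aim2-/- libraries. The mean CD8 sum was lower in Aim2-/- cells at 0 h (9.65 against 10.6 CPM) and 3 h (10.2 against 10.4 CPM). The 4 NK cell genes summed to 5.12 to 28.2 CPM in WT and 5.79 to 47.0 CPM in Aim2-/- libraries. Single markers were at 0 in a few libraries, among them Ms4a1, Pax5, Adgre1, Cd14, S100a8, S100a9 and Cd8a in 1 to 3 libraries each. Aim2 itself was at 32.5 to 75.0 CPM in the libraries of WT 3 and WT 4, at 5.28 to 20.1 CPM in the Aim2-/- libraries and at 5.57 to 21.5 CPM in the mouse labelled WT 1, which therefore does not stand apart from the Aim2-/- mice in this transcript. Counts of calls are for this reason also given without that mouse.

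All 10 genes passed the filter on low counts and were tested among 15325 genes with edgeR's quasi-likelihood F test. A gene is described as called, or as having risen or fallen, where its Benjamini-Hochberg adjusted p was under 0.05. In WT cells 4 of the 10 were called at 3 h against 0 h (2 higher and 2 lower), 6 at 6 h (3 and 3) and 9 at 24 h (7 and 2). Of all genes tested, 32.6% (16.2% higher and 16.4% lower), 51.1% (26.4% and 24.8%) and 71.4% (36.6% and 34.8%) were called in the same comparisons, so the share of members called is not far from that of genes in general. The counts in Aim2-/- cells were 4 (2 and 2), 6 (4 and 2) and 8 (6 and 2), against 30.7% (16.1% and 14.6%), 51.2% (28.5% and 22.7%) and 70.3% (36.8% and 33.5%) of all genes. What sets the members apart from one another is the time and the direction of the change, which are given by role below. The median log2 fold change of the 10 at 24 h was 1.75 in WT and 1.47 in Aim2-/- cells, beside -0.01 and 0.03 over all genes tested. Without the mouse labelled WT 1, 4, 5 and 9 of the 10 were called in WT cells at 3, 6 and 24 h. The shares of all genes above belong to the fit of all mice without a block. They are no background for these counts or for the added calls with a block below. Comparisons within a genotype share their 0 h libraries. The counts above do not use the pairing of libraries by mouse. With mouse as a block, Ccne1 and Cdkn1a at 3 h were called as well in WT cells. In Aim2-/- cells the block added Cdkn1a at 3 h, Ccnd1 and Cdkn1a at 6 h and Cdkn2c at 24 h. Between successive times, 4 members were called in WT cells from 3 to 6 h (25.7% of all genes) and 8 from 6 to 24 h (57.6%), and in Aim2-/- cells 2 (23.3%) and 6 (54.3%). With mouse as a block the number from 3 to 6 h in Aim2-/- cells was 5 (35.5% of all genes), and without WT 4 that in WT cells was 1 (9.83%).

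**Figure D1:**
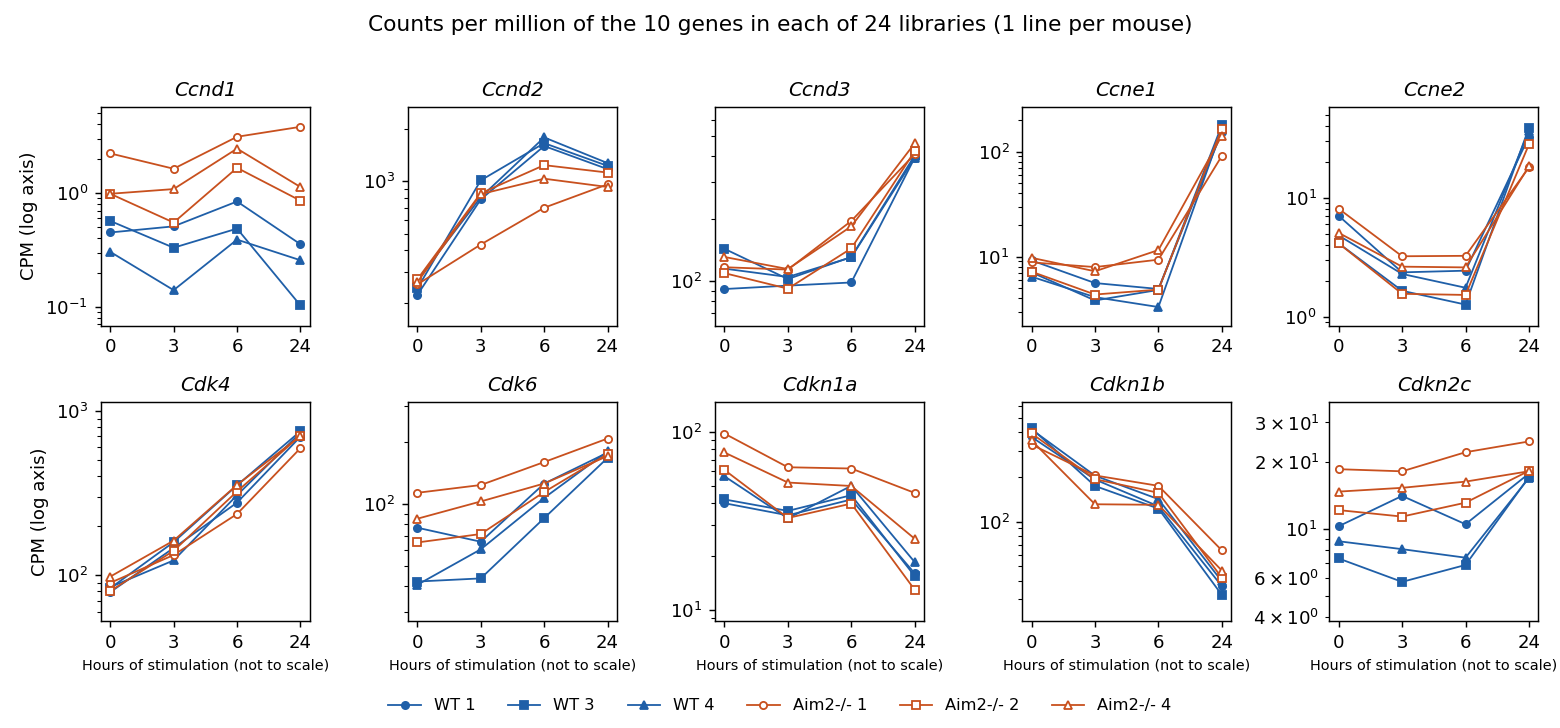
CPM (log axis) of the 10 genes in each of the 24 libraries at 0, 3, 6 and 24 h, with 1 line per mouse, filled markers for WT and open markers for Aim2-/-. Ccnd2 and Cdk4 rose and Cdkn1b fell from 3 h onward, Ccne1 and Ccne2 lay lowest at 3 or 6 h and highest at 24 h, and Ccnd1 was higher in every Aim2-/- library than in every WT library of the same time.

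Among the D-type cyclins, Ccnd2 (ENSMUSG00000000184, chr6:127125162-127152193, - strand) was the early responder. In WT cells it measured 222, 242 and 271 CPM at 0 h in mice 1, 3 and 4, then 787, 1012 and 809 CPM at 3 h, 1595, 1656 and 1787 CPM at 6 h and 1174, 1226 and 1272 CPM at 24 h. The groups at 0, 3 and 6 h do not overlap, and the level at 24 h lies between those at 3 and 6 h in every mouse. Against 0 h this was a rise of 3.55-fold at 3 h (log2 1.83 ± 0.20, SE of the fit, adjusted p = 7.46e-07) and 6.85-fold at 6 h (adjusted p = 1.05e-09). The decline from 6 to 24 h, with a log2 fold change of -0.46 ± 0.20, missed the threshold (adjusted p = 0.0539) and passed it with mouse as a block (adjusted p = 0.00707).

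In Aim2-/- cells of mice 1, 2 and 4, Ccnd2 measured 255, 273 and 263 CPM at 0 h, 433, 853 and 843 CPM at 3 h, 704, 1238 and 1034 CPM at 6 h and 960.3, 1122 and 927 CPM at 24 h. Mouse Aim2-/- 1 was the lowest of the 6 mice at 3 h and at 6 h, while its level at 24 h lay within the Aim2-/- range. The rise was 2.69-fold at 3 h (adjusted p = 1.83e-05) and 3.76-fold at 6 h (adjusted p = 1.65e-07).

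Ccnd3 (ENSMUSG00000034165, chr17:47505051-47599691, + strand), the D-type cyclin that thymocytes depend on, responded late. WT cells held 91.6, 143 and 115 CPM at 0 h, 95.1, 102 and 105 CPM at 3 h and 98.5, 131 and 130.2 CPM at 6 h, 3 groups that overlap, and then 394, 404 and 394 CPM at 24 h. The change at 24 h was 3.41-fold (log2 1.77 ± 0.15, adjusted p = 5.67e-10). In Aim2-/- cells Ccnd3 was already higher at 6 h, with 195, 144 and 184 CPM against 117, 109 and 131 CPM at 0 h (log2 0.55 ± 0.14, adjusted p = 0.0027), and reached 409.9, 424 and 463 CPM at 24 h. Without mouse Aim2-/- 1, the rise at 6 h was 0.45 on the log2 scale with an adjusted p of 0.0528.

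Ccnd1 (ENSMUSG00000070348, chr7:144929931-144939925, - strand), the D-type cyclin of many non-lymphoid cells, was near the floor of detection in WT cells. Its raw counts ran from 2 to 78 per library, and its CPM in WT cells was 0.450, 0.569 and 0.304 at 0 h and 0.355, 0.103 and 0.257 at 24 h. In Aim2-/- cells it was 2.23, 0.985 and 0.985 at 0 h and 3.82, 0.856 and 1.13 at 24 h. Stimulation moved it in neither genotype past the threshold, with a log2 fold change at 24 h of -0.87 ± 0.69 in WT (95% interval -2.32 to 0.58) and 0.47 ± 0.53 in Aim2-/- cells (-0.65 to 1.58). With mouse as a block the rise at 6 h in Aim2-/- cells passed it (log2 0.85, adjusted p = 0.0279).

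The E-type cyclins, which are E2F target genes and activators of CDK2, rose only between 6 and 24 h, and Ccne2 fell before that. Ccne2 (ENSMUSG00000028212, chr4:11191351-11204779, + strand) went in WT cells from 7.05, 4.14 and 4.82 CPM at 0 h to 2.36, 1.65 and 2.29 CPM at 3 h and 2.44, 1.27 and 1.75 CPM at 6 h, and then to 32.7, 38.8 and 36.8 CPM at 24 h. Every library of 3 and 6 h lies below every library of 0 h, and every library of 24 h lies above them. The log2 fold change against 0 h was -1.34 ± 0.33 at 3 h (adjusted p = 0.00293), -1.54 ± 0.33 at 6 h (adjusted p = 0.000476) and 2.76 ± 0.32 at 24 h (adjusted p = 9.23e-08). Aim2-/- cells showed the same order, with 8.09, 4.14 and 5.07 CPM at 0 h, 3.22, 1.56 and 2.64 CPM at 3 h, 3.25, 1.53 and 2.60 CPM at 6 h and 18.0, 28.1 and 18.4 CPM at 24 h. Their log2 fold changes were -1.22 ± 0.32 at 3 h (adjusted p = 0.00607), -1.23 ± 0.32 at 6 h (adjusted p = 0.00304) and 1.90 ± 0.31 at 24 h (adjusted p = 1.27e-05).

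Ccne1 (ENSMUSG00000002068, chr7:38097984-38107534, - strand) made the largest rise of the 10 genes in both genotypes. WT cells held 9.20, 7.08 and 6.44 CPM at 0 h, 4.92, 4.82 and 3.31 CPM at 6 h and 153, 178 and 163 CPM at 24 h, a 21.8-fold rise over 0 h (log2 4.44 ± 0.29, adjusted p = 1.58e-11) and a 37.8-fold rise over 6 h. Aim2-/- cells held 8.81, 7.19 and 9.75 CPM at 0 h, 9.36, 4.85 and 11.5 CPM at 6 h and 91.0, 166 and 142 CPM at 24 h, a 15.5-fold rise (adjusted p = 8.7e-11). Mouse Aim2-/- 1 is the lowest of the 6 at 24 h. The early fall was called in WT cells at 6 h (log2 -0.80 ± 0.29, adjusted p = 0.0272) and narrowly missed the threshold at 3 h (adjusted p = 0.0548, or 0.0347 with mouse as a block). It was less firm than that of Ccne2: over the 9 fits that each left out a library or a mouse the log2 value at 6 h ran from -0.96 to -0.63, and 4 of the 9 were called, with the call lost without each of WT 1, WT 3 and WT 4, without the 0 h library of WT 1 and without the 6 h library of WT 4. In Aim2-/- cells the log2 fold change was -0.39 ± 0.28 at 3 h (adjusted p = 0.32).

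Cdk4 (ENSMUSG00000006728, chr10:127063534-127067920, + strand), the partner kinase of the D-type cyclins, rose in steps at each time in all 6 mice. WT libraries held 78.8 to 84.5 CPM at 0 h, 123 to 159 CPM at 3 h, 277 to 353 CPM at 6 h and 698 to 753 CPM at 24 h. The corresponding Aim2-/- ranges were 80.0 to 97.9, 133 to 162, 236 to 355 and 594 to 708 CPM. No 2 successive time points overlap in either genotype. The rise over 0 h was 1.74-fold at 3 h (adjusted p = 9.11e-05), 3.80-fold at 6 h (adjusted p = 4.69e-10) and 8.88-fold at 24 h (adjusted p = 1.09e-13) in WT cells, and 7.50-fold at 24 h in Aim2-/- cells (adjusted p = 4.48e-13).

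Cdk6 (ENSMUSG00000040274, chr5:3341485-3531008, + strand), the second of these kinases, rose later and less. Its level was 77.0, 42.2 and 40.7 CPM at 0 h and 65.8, 43.7 and 60.5 CPM at 3 h in WT cells, with no separation of the 2 groups, then 126, 85.7 and 107 CPM at 6 h and 178, 168 and 181 CPM at 24 h. The log2 fold change was 1.00 ± 0.24 at 6 h (adjusted p = 0.00166) and 1.72 ± 0.25 at 24 h (adjusted p = 2.41e-06). In Aim2-/- cells Cdk6 measured 114, 65.3 and 85.2 CPM at 0 h, 161, 115 and 126 CPM at 6 h and 209, 176 and 172 CPM at 24 h. The rise was 1.07 ± 0.24 on the log2 scale at 24 h (adjusted p = 0.000509) and 0.60 ± 0.24 at 6 h (adjusted p = 0.0413), the latter called in 3 of 9 fits that left out a library or a mouse and lost without mouse Aim2-/- 2 or Aim2-/- 4, without the 0 h library of either and without the 6 h library of Aim2-/- 1 or Aim2-/- 4.

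The sequence before the start of each kinase gene was looked at as well. Promoter windows, 250 bases before to 50 bases after a start site, were given by RefSeq for 7 of the 10 genes on GRCm38.p6, Ccnd1, Ccnd2 and Ccne2 being the others. They were searched on both strands for CACGTG (the E-box bound by MYC and its partner MAX, which reads the same on both strands), GTAAACA (bound by FOXO factors), TTTCCCGC and TTTGGCGC (bound by E2F) and TTTGAA (the CHR element). The windows of the kinases are shown because Cdk4 holds 4 copies of CACGTG, which 8 of all 32851 windows (0.0244%) match or exceed, and Cdk6 holds 1, where 7.15% of all windows hold at least 1. The 250 bases before the start are printed, with the copies in capitals, and those of Cdk4 begin 172, 118, 98 and 11 bases before the start.
Cdk4 (chr10:127063285-127063534, + strand): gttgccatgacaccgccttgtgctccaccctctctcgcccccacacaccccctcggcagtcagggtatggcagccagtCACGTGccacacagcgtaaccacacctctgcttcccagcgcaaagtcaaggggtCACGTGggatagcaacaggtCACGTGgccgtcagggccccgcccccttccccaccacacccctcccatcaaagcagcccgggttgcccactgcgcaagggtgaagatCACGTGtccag
Cdk6 (chr5:3343643-3343892, + strand): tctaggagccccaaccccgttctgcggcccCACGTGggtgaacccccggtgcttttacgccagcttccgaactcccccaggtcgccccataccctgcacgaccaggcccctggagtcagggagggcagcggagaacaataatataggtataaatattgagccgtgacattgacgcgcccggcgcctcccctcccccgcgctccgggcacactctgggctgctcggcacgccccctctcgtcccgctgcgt
One of the 2 Cdkn2c windows also held CACGTG, and one of the 2 Ccnd3 windows held the FOXO heptamer on the opposite strand, which is found in 3.65% of all windows. The windows of Ccne1, Cdkn1a and Cdkn1b matched none of the searched sequences. A match is a description of these letters only.

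Of the inhibitors, Cdkn1b (ENSMUSG00000003031, chr6:134920401-134925513, + strand) was the most abundant gene of the 10 per kilobase in resting cells. It was lower than at 0 h at each later time in both genotypes. WT libraries held 372, 425 and 418 CPM at 0 h, 193, 174 and 204 CPM at 3 h, 127, 123 and 142 CPM at 6 h and 36.8, 32.1 and 39.7 CPM at 24 h. No WT group overlaps the one before it. The level was 2.13-fold lower at 3 h (log2 -1.09 ± 0.16, adjusted p = 1.62e-05) and 11.2-fold lower at 24 h (log2 -3.48 ± 0.17, adjusted p = 3.37e-13). Aim2-/- libraries went from 331, 393 and 353 CPM at 0 h through 205, 194 and 131 CPM at 3 h and 174, 157 and 129.9 CPM at 6 h to 64.1, 42.0 and 46.9 CPM at 24 h. Their values at 3 and 6 h overlap, and no fall between these times was called in any fit. The fall at 24 h was 7.03-fold (log2 -2.81 ± 0.17, adjusted p = 6.33e-12).

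Cdkn1a (ENSMUSG00000023067, chr17:29090976-29100727, + strand) reached its lowest level at 24 h in every mouse. At 3 h it measured 34.0, 36.0 and 32.7 CPM in WT cells, below every WT library of 0 h. The Aim2-/- libraries of 3 h held 63.4, 32.8 and 52.0 CPM, which overlaps their values of 0 h. At the other times Cdkn1a measured 39.8, 41.8 and 56.4 CPM at 0 h, 41.7, 44.1 and 49.8 CPM at 6 h and 16.0, 15.5 and 18.5 CPM at 24 h in WT cells. In Aim2-/- cells it was at 98.1, 61.2 and 76.7 CPM, 62.3, 39.6 and 49.7 CPM and 45.4, 12.9 and 25.1 CPM at these times. At 24 h the log2 fold change was -1.46 ± 0.31 in WT (adjusted p = 0.000261) and -1.50 ± 0.30 in Aim2-/- cells (adjusted p = 0.000176). With mouse as a block, lower values at 3 h in WT cells (log2 -0.41, adjusted p = 0.0282, from 0.305) and at 3 and 6 h in Aim2-/- cells (log2 -0.70 and -0.64, adjusted p = 0.000482 and 0.000605, from 0.0949 and 0.0789) were called as well.

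Cdkn2c (ENSMUSG00000028551, chr4:109660876-109667189, - strand) went against the other inhibitors and rose. In WT cells it measured 10.3, 7.34 and 8.77 CPM at 0 h and 17.7, 17.1 and 16.9 CPM at 24 h (log2 0.97 ± 0.27, adjusted p = 0.00325). The Aim2-/- libraries started higher, at 18.5, 12.1 and 14.7 CPM, and held 24.7, 18.2 and 18.1 CPM at 24 h, which overlaps the values of 0 h. Their log2 fold change of 0.43 ± 0.27 was not called (adjusted p = 0.156) unless mouse was a block (adjusted p = 0.0108).

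**Figure D2:**
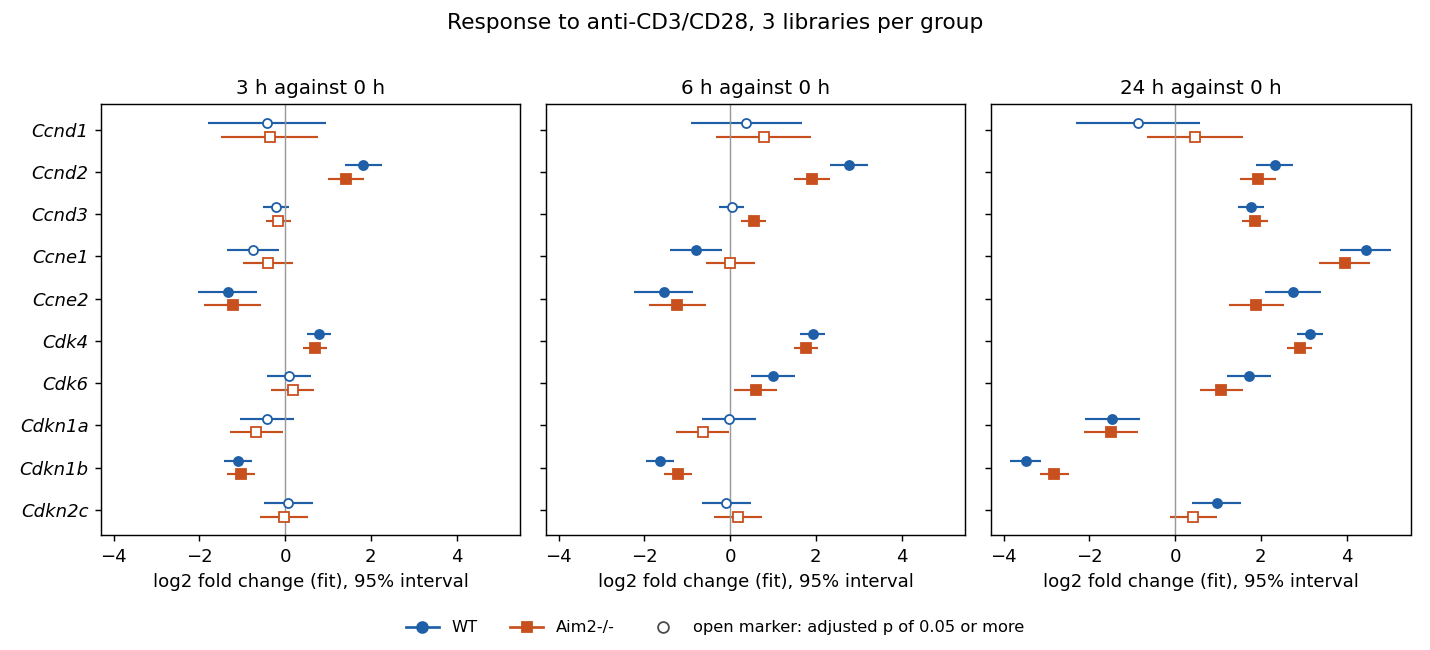
Log2 fold change against 0 h with its 95% interval for each gene at 3, 6 and 24 h, as fitted in WT (circles) and Aim2-/- cells (squares). Open markers did not reach an adjusted p under 0.05. At 24 h every gene but Ccnd1 in WT cells, and every gene but Ccnd1 and Cdkn2c in Aim2-/- cells, carries a filled marker.

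To compare levels between genes, CPM was divided by the length of the merged exons in kilobases. Over the 6 mice the resting order was led by Cdkn1b (83.9 ± 8.14 CPM per kilobase, SD over 6 mice), followed by Ccnd2 (27 ± 2.05) and Cdk4 (26.4 ± 2.19), which lay within each other's spread. Cdkn1a (17.5 ± 6.23) and Ccnd3 (13.4 ± 2.03) came next with overlapping values, then Cdk6 (5.05 ± 1.98), Cdkn2c (4.45 ± 1.53), Ccne1 (3.03 ± 0.506), Ccne2 (1.59 ± 0.469) and Ccnd1 (0.195 ± 0.148). At 24 h the order was led by Cdk4 (215 ± 17.2 CPM per kilobase), Ccnd2 (118 ± 15.0), Ccne1 (56.0 ± 11.6) and Ccnd3 (47.3 ± 2.96), of which the last 2 overlap, and Cdkn1b had left the first place (9.58 ± 2.46). It was seventh in WT cells, where Ccne2 lay above it in all 3 libraries (10.3 ± 0.891 against 7.95 ± 0.838 CPM per kilobase), and sixth in Aim2-/- cells, where Ccne2 lay below it in all 3 (6.14 ± 1.63 against 11.2 ± 2.56). These places hold for merged exons only. The longest transcript has 3858 in place of 8775 bases for Ccnd3 and 2000 in place of 2662 for Ccne1. By that length Ccnd3 lies above Ccne1 at 24 h, and Ccne2 is not below Cdkn1b in Aim2-/- 2.

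Within the D-type cyclins, Ccnd2 made up 66.6 ± 3.28% of the summed level per kilobase at 0 h (SD, n = 6), 86.8 ± 4.64% at 3 h, 87.9 ± 6.66% at 6 h and 71.1 ± 3.85% at 24 h, the late decline going with the rise of Ccnd3. The genotypes separated in this share at 6 h (92.1 to 93.7% in WT and 76.6 to 88.7% in Aim2-/- libraries) and at 24 h (73.5 to 75.0% and 65.0 to 71.1%). Ccne1 made up 66.0 ± 4.87% of the E-type level at 0 h and 87.3 ± 2.16% at 24 h (85.4 to 86.0% in WT and 86.9 to 91.0% in Aim2-/- libraries). The share of Cdk6 in the summed level of both kinases was 15.8 ± 4.85% at 0 h and 5.71 ± 0.928% at 24 h. Cdkn1b held 79.3 ± 7.09% of the level of the 3 inhibitors at 0 h and 42.3 ± 2.81% at 24 h, its share at 0 h being 82.8 to 86.6% in WT and 67.8 to 79.9% in Aim2-/- libraries.

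The log2 ratio of the summed cyclins to the summed inhibitors turned from -1.23 ± 0.06 at 0 h to 0.78 ± 0.49 at 3 h, 1.69 ± 0.58 at 6 h and 3.37 ± 0.54 at 24 h. By genotype the libraries of 6 h did not overlap, with 2.07 to 2.21 in WT and 0.67 to 1.58 in Aim2-/- cells. Those of 24 h, with 3.63 to 3.84 in WT and 2.39 to 3.60 in Aim2-/- cells, were only just apart. The nearest were WT 1 at 3.63 and Aim2-/- 2 at 3.60. Among all genes tested, the genotypes did not overlap for 35.6% at 6 h and 21.3% at 24 h. The ratio was below 0 in all 6 mice at 0 h and above 0 in all 6 at 6 and 24 h. At 3 h it was above 0 in 5 mice and -0.14 in mouse Aim2-/- 1. That mouse also had the highest sums of myeloid, B cell and erythroid markers, and a link with the ratio was not tested. The log2 ratio of E-type to D-type cyclins went the other way first, from -3.15 ± 0.35 at 0 h to -5.78 ± 0.98 at 6 h, and stood at -1.40 ± 0.27 at 24 h. At 6 h it was -6.87 to -6.15 in WT and -6.04 to -4.46 in Aim2-/- cells, again without overlap. These are descriptions without a test, and the shares depend on the exon length taken for each gene.

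**Figure D3:**
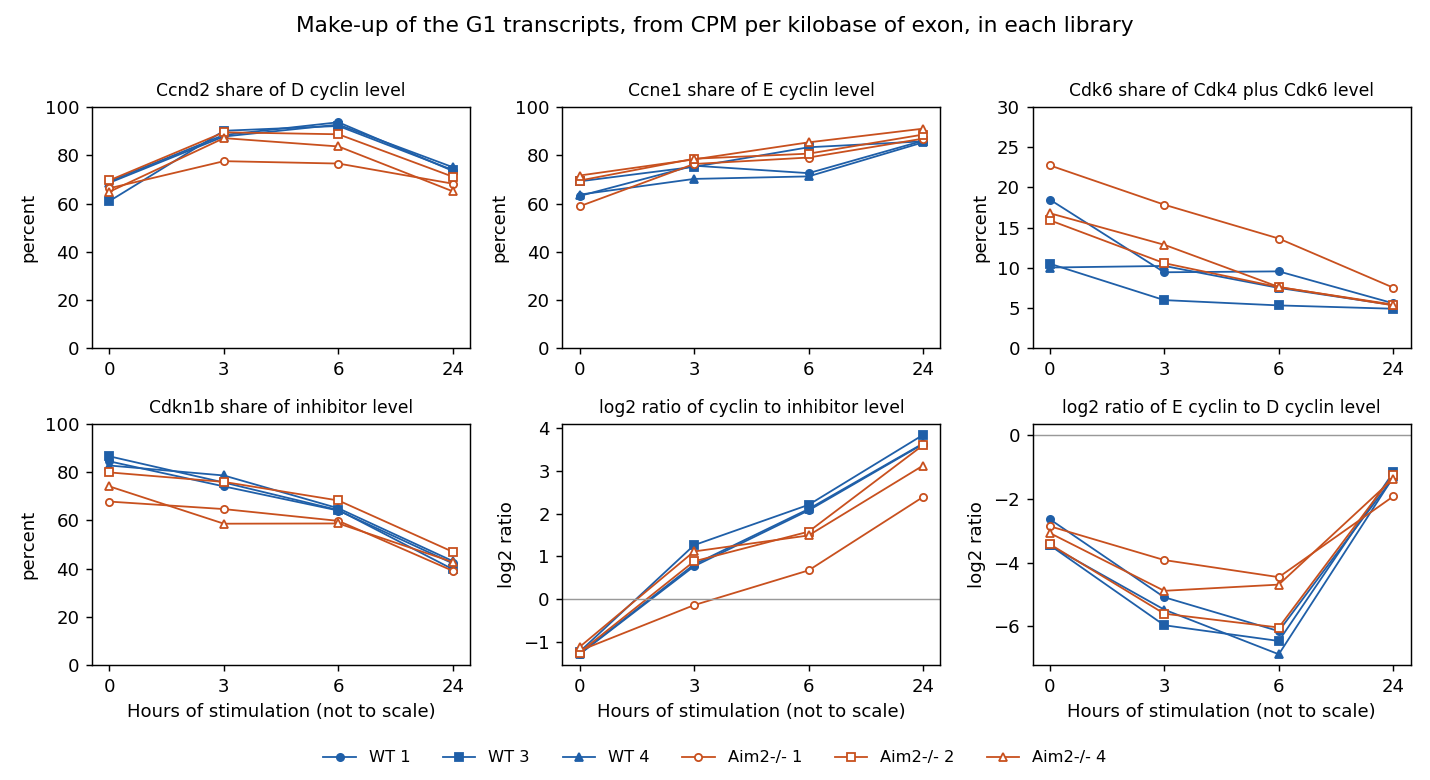
Shares (percent) and log2 ratios of summed levels, in CPM per kilobase of merged exon, in each library at 0, 3, 6 and 24 h, with 1 line per mouse. The ratio of cyclins to inhibitors climbs in every mouse, from below 0 to between 2.39 and 3.84 at 24 h, and the ratio of E-type to D-type cyclins dips at 3 and 6 h before it rises.

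Around the 10 genes, 45 further genes of the same pathway were examined in 6 lists. In WT cells 6 of the 45 were higher and 12 lower at 3 h, 15 and 12 at 6 h, and 32 and 8 at 24 h. The counts in Aim2-/- cells were 7 and 11, 12 and 10, and 32 and 8. All genes tested gave in WT cells 16.2% higher and 16.4% lower at 3 h, 26.4% and 24.8% at 6 h, and 36.6% and 34.8% at 24 h. In Aim2-/- cells the shares were 16.1% and 14.6%, 28.5% and 22.7%, and 36.8% and 33.5%. Of these genes, Cdt1, Cdk2, Rb1, Tfdp2, Rbl1 and Mdm2 are described below because their values were seen, and the others by the size of their change at 24 h in WT cells.

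The 9 S phase genes that E2F controls, among them the replication licensing factor Cdc6, the ribonucleotide reductase subunit Rrm2 and thymidylate synthase Tyms, were all higher at 24 h in both genotypes. Cdc6 led with a log2 fold change of 5.22 ± 0.48 in WT cells (adjusted p = 3.08e-09), and the list had a median log2 fold change of 4.57 in WT and 3.60 in Aim2-/- cells. At 6 h the median was 0.07 and 0.19, with 3 of 9 higher and 1 lower in WT cells. The licensing factor Cdt1 was that one, with a log2 fold change of -0.89 ± 0.12 at 6 h (adjusted p = 3.34e-06) and 0.84 ± 0.12 at 24 h (adjusted p = 2.91e-06). Like Ccne2 it thus fell first and rose later.

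All 8 genes of the CDK2 arm, which holds the kinase Cdk2, its partner Ccna2, the phosphatase Cdc25a and the CDK-activating kinase, were higher at 24 h in both genotypes. Ccna2 had the largest change, with log2 4.66 ± 0.46 in WT (adjusted p = 9.63e-09) and 3.76 ± 0.44 in Aim2-/- cells (adjusted p = 1.28e-07). Cdk2 itself fell at 3 h (log2 -0.69 ± 0.11 in WT, adjusted p = 6.47e-05, and -0.50 ± 0.11 in Aim2-/- cells, adjusted p = 0.00175) and was higher at 24 h (log2 1.13 ± 0.11 and 1.12 ± 0.11). In the RB and E2F list, 9 of 13 were higher and 3 lower at 24 h in each genotype. The highest was E2f8, a repressor of the family that is itself an E2F target (log2 4.26 ± 0.45 in WT, adjusted p = 2.79e-08), and E2f5 was not called (log2 -0.18 ± 0.18, adjusted p = 0.368). The lower ones were the pocket proteins Rb1 (log2 -1.34 ± 0.13 in WT, adjusted p = 8.66e-09) and Rbl2, the p130 of resting cells (log2 -2.03 ± 0.13, adjusted p = 1.32e-11), and the E2F partner Tfdp2, while the third pocket protein, Rbl1, was higher.

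Of the upstream transcription factors, Myc rose within 3 h in both genotypes (log2 2.60 ± 0.20 in WT, adjusted p = 7.21e-09, and 2.01 ± 0.20 in Aim2-/- cells, adjusted p = 2.52e-07). Foxo1, a factor known to activate Cdkn1b, fell from 3 h onward in both (adjusted p at 3 h = 2.62e-08 and 4.58e-07) and stood at log2 -1.99 ± 0.09 in WT and -1.90 ± 0.09 in Aim2-/- cells at 24 h. Mdm2, like Cdkn1a a target of p53, was lower at all 3 times in both. Among the genes of p27 and cyclin E turnover, Skp2, the subunit of the ubiquitin ligase that recognises p27, was higher at 24 h (log2 2.69 ± 0.18 in WT, adjusted p = 3.15e-11, and 2.07 ± 0.18 in Aim2-/- cells, adjusted p = 1.52e-09). In all, 4 of the 6 turnover genes were higher and 1, the p27 kinase gene Uhmk1, was lower at 24 h in each genotype (log2 -0.72 ± 0.12 in WT), while Fbxw7, which targets cyclin E, was not called (log2 0.04 ± 0.09 in WT, adjusted p = 0.726). None of the 4 other CDK inhibitors was called higher at 24 h. Cdkn1c (p57) was lower (log2 -2.04 ± 0.31 in WT and -2.21 ± 0.31 in Aim2-/- cells), and Cdkn2d (p19) was lower at 3 h in both genotypes.

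**Figure D4:**
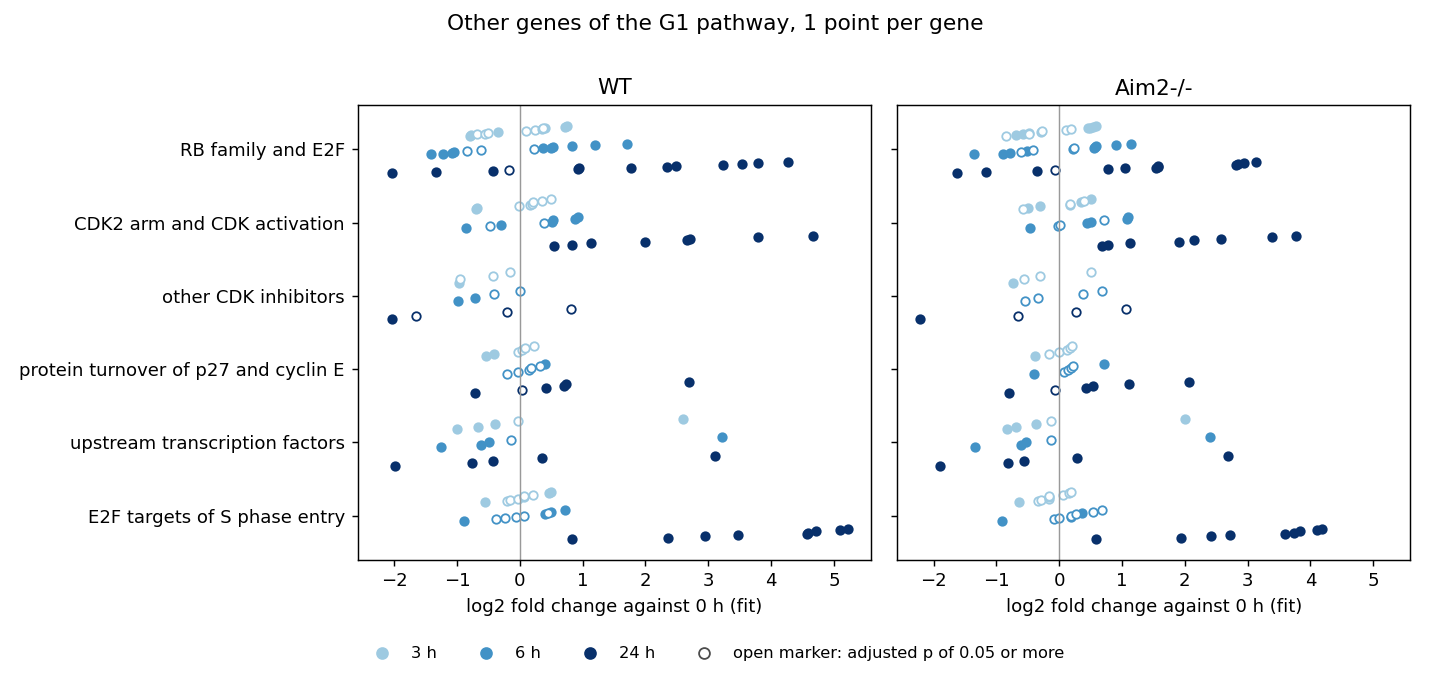
Log2 fold change against 0 h of the 45 other pathway genes, grouped by list, at 3, 6 and 24 h (light to dark) in WT and Aim2-/- cells, with 1 point per gene. Filled points passed an adjusted p of 0.05. The E2F targets and the CDK2 arm lie wholly to the right of 0 at 24 h, and the upstream factors split at 24 h into Myc and Trp53, which rose, and 3 that fell.

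For each member, the gene whose log2 CPM followed it most closely over the 24 libraries was noted, as a description and without a p, since the libraries share mice, times and depth. The nearest gene was Galk1 for Cdk4 (Pearson r = 0.998), Ccng2 for Cdkn1b (0.995), Samd1 for Ccnd3 (0.994), Rrm1 for Ccne1 (0.992), Tsr1 for Ccnd2 (0.986), Cdk2 for Ccne2 (0.977), Spire1 for Cdk6 (0.950) and Atp6v0a1 for Cdkn2c (0.928). Ccnd1 was nearest to Hk3 (0.950) and Pirb (0.936), and Cdkn1a to Klrb1b (0.932) and to Csf1r (0.926), the last of which is one of the 7 myeloid markers above.

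Aim2-/- cells were compared with WT cells at each time, and most calls were made at 6 h. At 6 h, 5 of the 10 were called, 1 lower and 4 higher, beside 15.8% of all genes tested (7.01% lower and 8.78% higher). Ccnd2 was lower in Aim2-/- cells (704, 1238 and 1034 against 1595, 1656 and 1787 CPM, log2 -0.76 ± 0.20, adjusted p = 0.0191), and the groups do not overlap. Higher in Aim2-/- cells were Ccnd3 (log2 0.54 ± 0.14, adjusted p = 0.0193), Ccne1 (log2 0.98 ± 0.29, adjusted p = 0.0311), Cdkn2c (log2 1.05 ± 0.27, adjusted p = 0.0183) and Ccnd1 (log2 2.06 ± 0.57, adjusted p = 0.0239). For Ccne1 the groups overlap, 9.36, 4.85 and 11.5 CPM in Aim2-/- against 4.92, 4.82 and 3.31 CPM in WT cells. Groups did not overlap for 4 of the 10 genes, beside 35.6% of all genes. For Cdk4 the difference at this time was near 0 (log2 -0.03 ± 0.13, 95% interval -0.31 to 0.24).

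Several measurements moved with these calls. In the libraries of 6 h, the myeloid markers summed to 48.4 to 201 CPM in Aim2-/- and 15.5 to 38.3 CPM in WT cells, the B cell markers to 15.9 to 46.4 and 7.01 to 11.9 CPM, the erythroid markers to 23.2 to 498 and 8.08 to 64.9 CPM, and the basophil and mast cell markers to 65.5 to 132 and 7.64 to 14.4 CPM. Called higher at 6 h were 2 of 6 B cell genes and 4 of 4 basophil and mast cell genes, against 0 of 6 CD4+ T cell genes, while the 7 myeloid and 6 erythroid genes had median log2 differences of 1.91 and 2.97 without a call. With the B cell, myeloid and erythroid scores as terms in the fit, none of the 5 genes was called, beside 3.9% of all genes: Ccnd2 was at log2 -0.54 (adjusted p = 0.0997), Ccnd3 at 0.42 (0.0688), Ccne1 at 0.82 (0.138), Cdkn2c at 0.80 (0.0858) and Ccnd1 at 1.18 (0.0893). All 5 kept their direction. The part of the other cells in the differences was not tested, and in bulk RNA fewer cells of a type and less RNA per cell cannot be told apart.

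The calls at 6 h changed with the mice included, among the 10 genes as among all genes. Without the mouse labelled WT 1, 3 of the 10 genes were called at 6 h (11.4% of all genes), with Ccnd2 at log2 -0.80 (adjusted p = 0.0395), Cdkn2c at 1.26 (0.0101) and Ccnd1 at 2.44 (0.0356). The number was 1 without Aim2-/- 1, where Ccnd2 remained called (log2 -0.56, adjusted p = 0.0399), 5 without Aim2-/- 2, and 0 without WT 3, WT 4 or Aim2-/- 4. Of all genes, 1.92% were called without Aim2-/- 1, 25.7% without Aim2-/- 2, 1.14% without WT 3, 0.607% without WT 4 and 2.71% without Aim2-/- 4. The log2 difference of Ccnd2 over these fits lay between -0.95 and -0.56.

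At the other times fewer members were called. Ccnd1 was the only one at 24 h, 3.82, 0.856 and 1.13 CPM in Aim2-/- against 0.355, 0.103 and 0.257 CPM in WT cells (log2 2.99 ± 0.64, adjusted p = 0.0354), where 0.666% of all genes were called. It rests on a few counts per WT library, and its call was lost without any one of the mice other than Aim2-/- 2, with the log2 difference between 2.03 and 3.39. Among the members that missed the threshold at 24 h were Ccne2 and Cdkn1b, whose groups do not overlap. Ccne2 was at 18.0, 28.1 and 18.4 CPM in Aim2-/- against 32.7, 38.8 and 36.8 CPM in WT cells (log2 -0.75 ± 0.29, adjusted p = 0.165), and Cdkn1b at 64.1, 42.0 and 46.9 against 36.8, 32.1 and 39.7 CPM (log2 0.49 ± 0.16, adjusted p = 0.114). Groups did not overlap for 6 of the 10 genes at 24 h, beside 21.3% of all genes. Without mouse Aim2-/- 2, 4 members were called at 24 h, namely Ccnd1, Ccne2, Cdkn1b and Cdkn1a, beside 17.3% of all genes. With the 3 marker scores as terms the log2 value of Ccnd1 was 1.66 (adjusted p = 0.302), and at 24 h the myeloid markers summed to 22.2 to 159.8 CPM in Aim2-/- and 9.20 to 19.8 CPM in WT cells.

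At 0 h and 3 h edgeR called 0 of the 10, with 4 and 3 at an unadjusted p under 0.05, and 5.23% and 0.294% of all genes called. DESeq2 called 1 at each time, Cdk6, and limma-voom 0, while the shares just given are those of edgeR. Without the mouse labelled WT 1 edgeR called 2 at each time, Cdk6 (log2 1.09 at 0 h and 0.94 at 3 h) and Cdkn2c (log2 0.91 and 1.10). Without Aim2-/- 2 it called 4 at 0 h (Ccnd1, Cdk6, Cdkn1a and Cdkn2c) and 3 at 3 h (Ccnd1, Cdk6 and Cdkn1a). Of all genes, 5.77% and 2.71% were called at these times without WT 1, and 13.7% and 7.31% without Aim2-/- 2. The resting differences with an unadjusted p under 0.05 were those of Ccnd1 (log2 1.65 ± 0.59, adjusted p = 0.0977), Cdk6 (0.72 ± 0.24, 0.0784), Cdkn1a (0.78 ± 0.30, 0.12) and Cdkn2c (0.78 ± 0.27, 0.0876). All 4 had positive values, Aim2-/- over WT. With the 3 scores as terms their log2 values were 0.49, 0.40, 0.16 and 0.35 (adjusted p = 0.587, 0.484, 0.788 and 0.542).

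**Figure D5:**
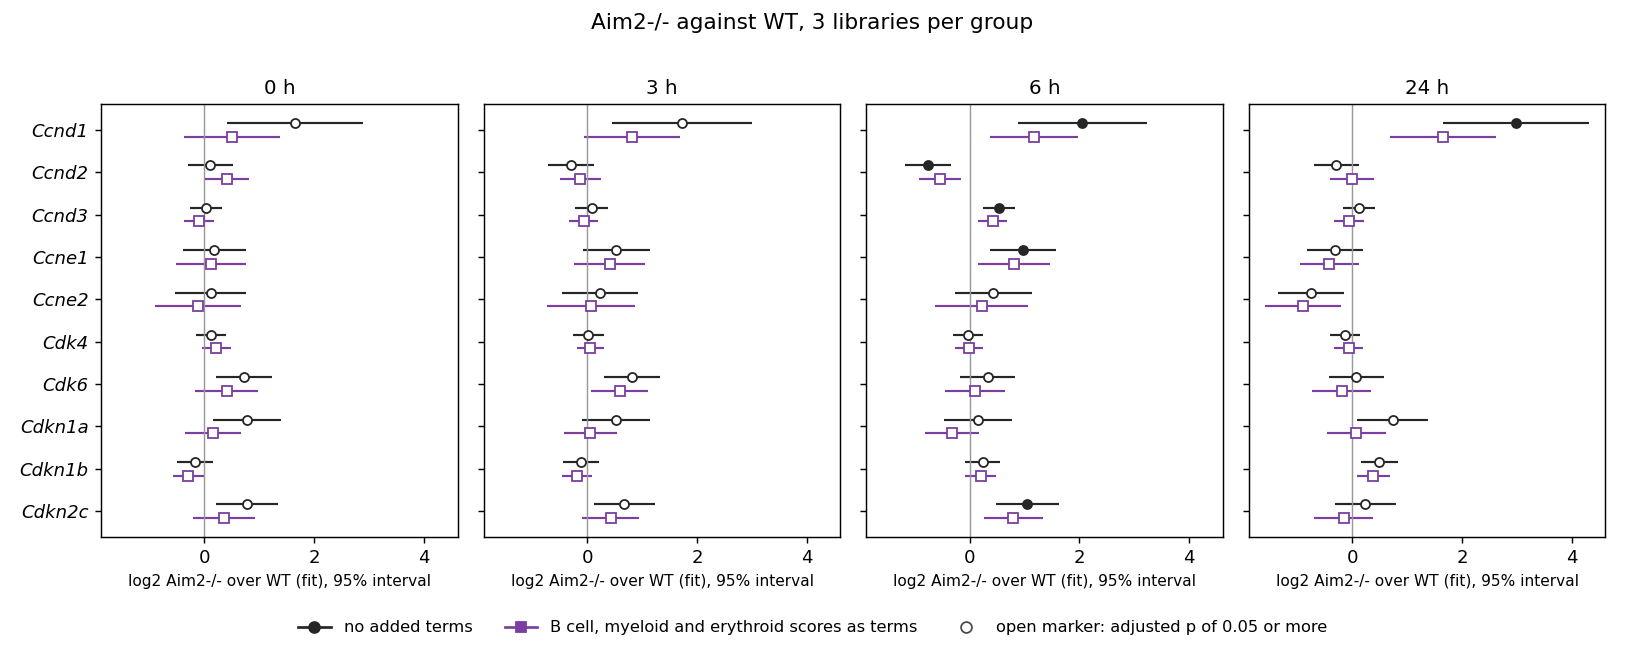
Log2 difference of Aim2-/- over WT cells with its 95% interval for each gene at 0, 3, 6 and 24 h, from the fit without added terms (black circles) and from the fit with the B cell, myeloid and erythroid scores as terms (purple squares). Filled markers have an adjusted p under 0.05. Only black markers are filled, 5 at 6 h and 1 at 24 h.

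Whether stimulation acted differently in the genotypes was tested by the interaction. edgeR called 0 of the 10 at 3, 6 and 24 h, as did DESeq2 and limma-voom, with 0, 2 and 1 at an unadjusted p under 0.05, and 0%, 0.0261% and 0% of all genes called. The members with the lowest p were Ccnd2 at 6 h (Aim2-/- response minus WT response, log2 -0.87 ± 0.28, adjusted p = 0.182), Ccnd3 at 6 h (log2 0.51 ± 0.20, adjusted p = 0.272) and Cdkn1b at 24 h (log2 0.67 ± 0.22, adjusted p = 0.236). With mouse as a block these 3 passed the threshold (adjusted p = 0.0156, 0.0464 and 0.044), beside 4.68% of all genes called at 6 h and 2.77% at 24 h in that fit. Ccnd2 at 6 h was also called with the 3 marker scores as terms and with no filter on low counts, in all 3 of 27 alternative fits. No member was called without any 1 of the 6 mice. For Cdk4 the interval of the interaction at 24 h was -0.63 to 0.15 on the log2 scale.

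Of the 45 other pathway genes, 11 were called between the genotypes at 6 h, 9 higher and 2 lower in Aim2-/- cells, beside the 15.8% of all genes (8.78% higher and 7.01% lower). Among them were the E2F targets Tyms (log2 0.89 ± 0.27, adjusted p = 0.0338), Tk1 (1.29 ± 0.41, 0.0406), Rrm2 (1.12 ± 0.36, 0.0421) and Cdc6 (1.28 ± 0.43, 0.0493), all higher. Myc and Uhmk1 were the lower ones (log2 -0.59 ± 0.19 and -0.46 ± 0.12, adjusted p = 0.0405 and 0.0187). With the 3 scores as terms 1 of the 45 was called, and without mouse Aim2-/- 1, which has the highest marker sums, 0 (14 at an unadjusted p under 0.05); without the mouse labelled WT 1 the number was 10. It was 0 without WT 3, WT 4 or Aim2-/- 4 as well, and 19 without Aim2-/- 2. At 0 h 1 of the 45 was called, Mnat1, a subunit of the CDK-activating kinase, which was lower in Aim2-/- cells. At 3 and 24 h edgeR and limma-voom called 0, with 2 and 10 at an unadjusted p under 0.05 in edgeR, and DESeq2 called 0 and 3.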

How the data were processed

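Poly(A) RNA of 24 libraries (2 genotypes, 4 times, 3 mice each) was prepared with a stranded TruSeq kit, and per the labels the reads were processed with STAR on GRCm38. The authors deposited raw read counts per Ensembl gene, and these counts were used as they stand. DESeq2 and edgeR are also named in the submitters' processing notes, without versions. Whether counting used the strand is not given in the sources used here.

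All genes were fitted together in edgeR 4.0.16 (R 4.3.3) with TMM scaling, filterByExpr at a minimum count of 10, 1 mean per group over all 24 libraries and the quasi-likelihood F test, two-sided. The filter kept 15325 genes and left 16042 with counts untested. Adjusted p is the Benjamini-Hochberg value within a comparison. CPM uses TMM-scaled library sizes, log2 CPM a prior count of 2, and 95% intervals and SE come from the fit. Counts of 3 per library were taken as the floor, which covers counting error only. Alternatives were DESeq2 1.42.0, limma-voom (limma 3.58.1), other scaling and filters, separate fits of the groups in question, the mouse as a blocking term, added terms for marker scores, and leaving out each library or mouse. The test was checked on simulated data.

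Libraries of the same mouse deviated together from their group means (r from 0.139 to 0.567 over 36 pairs, against -0.432 to 0.0742 over 72 pairs of different mice), so within a genotype the numbers pair the libraries. The mice are the replicates, but the main fit has no term for the mouse. It estimates the spread over all 24 libraries as if they were independent, so each mouse enters at every time. Its degrees of freedom therefore count libraries and not mice, also in the comparisons of the genotypes. Mouse numbers shared by WT and Aim2-/- mice are different animals. The 10 genes, the pathway lists and the markers were chosen with earlier results of these data known. From a pathway list, the genes with the largest change at 24 h in WT cells and those not called were to be named, and for each member the most similar genes by Pearson r.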

Additional observations from a re-analysis of the deposited data

How the results depend on the processing

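No called value changed sign under any alternative run. For Aim2-/- against WT, the number of the 10 genes called at 0, 3, 6 and 24 h (0, 0, 5 and 1) was 3, 1, 5 and 4 with no filter on low counts, 1, 1, 5 and 1 with DESeq2, and 4, 4, 5 and 2 with a replicate block on the mouse number, which pairs different animals. With only the libraries compared it was 2 at 6 h and 0 at 24 h, limma-voom gave 0 at 24 h, and with the marker scores as terms it was 0 at 6 and 24 h. With 1 library or mouse left out it ranged from 0 to 4 at 0 h, 0 to 3 at 3 h, 0 to 5 at 6 h and 0 to 4 at 24 h. From 3 to 6 h it ranged from 1 to 4 in WT cells. For the genotype difference in the 6 h response, 1 gene was called with no filter and 1 with the scores, Ccnd2 in both. With mouse as a replicate block 2 were called, Ccnd2 and Ccnd3, and the block gave 1 at 24 h. It gave 5 from 3 to 6 h in Aim2-/- cells. Except where a share of all genes is given for the same fit above, these counts stand without one. They then do not show whether the members changed more than genes in general. The cause of these changes was not tested. Taking the longest transcript as gene length, Ccnd2 held 56.8%, 81.3% and 61.8% of the D-type level at 0, 3 and 24 h, Cdk6 4.44% of the kinase level at 24 h, and Cdkn1b 71.0%, 62.0%, 52.8% and 34.9% of the inhibitor level at 0, 3, 6 and 24 h. The log2 ratio of cyclins to inhibitors was then -0.63 at 0 h, and that of E-type to D-type cyclins -3.61 at 0 h and -1.79 at 24 h. Depth limits Ccnd1, whose WT libraries hold few counts.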
